A study of Mus musculus with 12 samples.

Results

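Atria and ventricles of the embryonic heart express different genes, and the comparison described here asked for which genes and functions this chamber difference was lost, kept or turned in heart organoids. The measurement is the interaction of chamber and tissue, namely the log2 fold change of the atrium-like over the ventricle-like parts of heart organoids (HOs) minus the log2 fold change of the atria over the ventricles of embryonic hearts at E11.5 (E11.5H). It needs every library of the series, so all 12 of the 12 libraries were members, 3 in each of 4 groups. E11.5H were hearts of C57BL/6 embryos of stage E11.5. HOs were beating structures grown for 13 days from embryoid bodies of mouse embryonic stem cells, with the strain given as C57BL/6 in the labels, in medium with FGF4 and on a gel of laminin and entactin. Late in the culture, per the methods of the study, BMP4, the GSK3 inhibitor BIO and the cytokine LIF were added to that medium. The groups are E11.5H atria, E11.5H ventricles, HO atrium-like and HO ventricle-like, each cut out by hand before RNA extraction. No transgene or deletion is given for any group. Tissue, stage and culture differ together between E11.5H and HOs and cannot be told apart, whereas the interaction compares differences within a tissue. The methods of the study name ES cell lines of C57BL/6 and of an F1 hybrid without stating which line gave which library.

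In the embryonic heart the atria arise largely from the venous pole. Tbx5 and the COUP-TF nuclear receptors Nr2f1 and Nr2f2 act in atrial identity, and Shox2, Tbx3, Tbx18 and Isl1 belong to the program of the sinus venosus and the sinus node, where Hcn4 carries the pacemaker current. Ventricular identity rests on factors such as Irx4, Hey2 and Hand1, and each chamber builds its sarcomere from its own myosin light chains, Myl7 and Myl4 in the atria, Myl2 and Myl3 in the ventricles. A negative interaction therefore means that a gene stood lower in the atrium-like part, relative to the ventricle-like part, than the embryonic chambers would have it.

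About 23971300 to 30541000 fragments were assigned to genes per library over the 12 libraries. A count of 0 allows up to 0.0982 to 0.13 CPM, counts scaled to the library total, which covers counting error only. The spread between replicates was larger in HOs, with a biological coefficient of variation of 0.677 in the fit of the 6 HO libraries and 0.211 in the fit of the 6 E11.5H libraries. A list of 16 pan-cardiomyocyte genes, among them Tnnt2, Actn2 and Ryr2, summed to 26226 to 31427 CPM in E11.5H atria and 32122 to 33186 CPM in E11.5H ventricles. The same list summed to 1019 to 2676 CPM in the atrium-like part of HOs and 3609 to 8629 CPM in the ventricle-like part, so that the HO groups did not overlap, and 16 of its 16 genes had a negative HO log2 fold change with a median of -1.64. In contrast, 12 gut epithelium genes such as Epcam and Cdh1 summed to 2455 to 8399 CPM in the atrium-like part of HOs and 1222 to 5352 CPM in the ventricle-like part, against 138 to 179 CPM in E11.5H, and 12 hepatocyte and visceral endoderm genes such as Afp and Ttr to 1606 to 28255 and 82.1 to 10562 CPM, against 3.28 to 10.7 CPM in E11.5H. The HO parts overlapped in the gut epithelium list and in the hepatocyte and visceral endoderm list. HO libraries of number 2 stood apart in both parts, with a mean level of 3.94 and 3.86 on the log2(CPM + 0.5) scale for 11 skeletal muscle genes, where the other HO libraries had 0.40 to 0.78. In such bulk samples fewer cells of a type and less RNA per cell cannot be told apart. The part of these marker levels in the chamber differences was not tested beyond a scaling to the pan-cardiomyocyte list, which raised the median of all genes by 1.34 in the interaction and by 1.52 in the HO difference (both log2), while scaling to library totals alone lowered it by 0.25 and 0.15. On both scales a change is to be read relative to that shift.

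**Figure D1:**
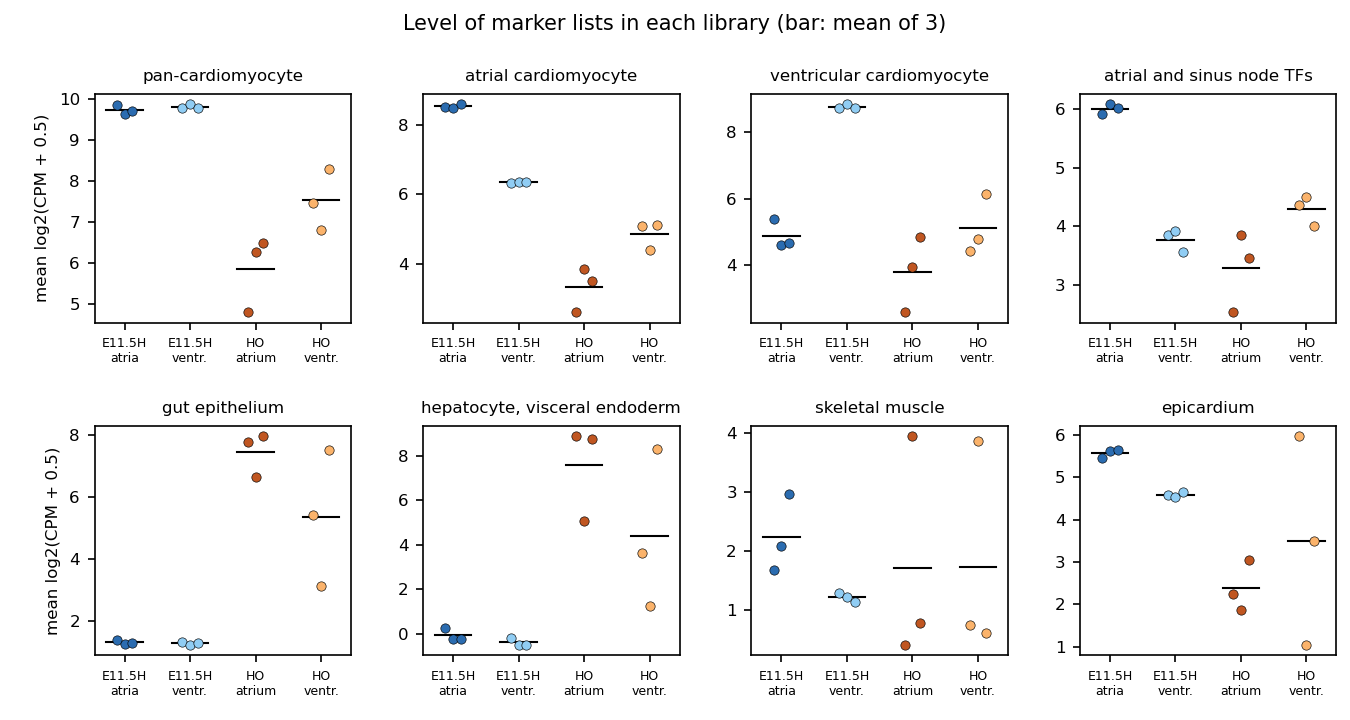
Mean level of 8 marker lists in each library on the log2(CPM + 0.5) scale, with 3 points and a bar for their mean in each group. The pan-cardiomyocyte level lay at 9.63 to 9.87 in E11.5H, 4.79 to 6.47 in the atrium-like part of HOs and 6.81 to 8.30 in the ventricle-like part, and the gut epithelium level was above 3 in every HO library and below 2 in every E11.5H library.

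Of 16494 genes tested over the 12 libraries, 25 passed the interaction threshold (edgeR quasi-likelihood test, adjusted p under 0.05 and an absolute log2 difference over 1), 0.152% of the genes tested. Of these, 21 were lower (0.127%) and 4 were higher (0.0243%). All 21 lower genes were atrial genes of the embryo (edgeR, 425 atrial genes in all). The sign of the interaction was the same in all 25 genes under each alternative that was run, other scalings, tests and filters and each library left out. The number of calls was not stable. It was 2 without any of the 3 E11.5H atria libraries or without E11.5H ventricles replicate 2, 3 without E11.5H ventricles replicate 1 and 6 without replicate 3. It was 36, 216 and 13 without HO atrium-like replicates 1, 2 and 3, and 12, 42 and 61 without HO ventricle-like replicates 1, 2 and 3. Shox2 and Nr2f2 passed in all 12 of these fits, and the other 23 genes in 2 to 7 of them. Under the pan-cardiomyocyte scaling 14 genes passed, but only 6 of the 25 were among them, Shox2, Vsnl1, Osr1, Cyp1b1, Cav1 and B3gnt3, and the other 19, Nr2f2 included, had edgeR adjusted p from 0.0598 to 0.247 there. With limma-voom 19 of the 25 passed, with DESeq2 all 25, and with a replicate block 2, Shox2 and Nr2f2. With both HO parts of number 2 left out, which was tried after seeing the data, 276 genes passed, all 25 among them.

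**Figure D2:**
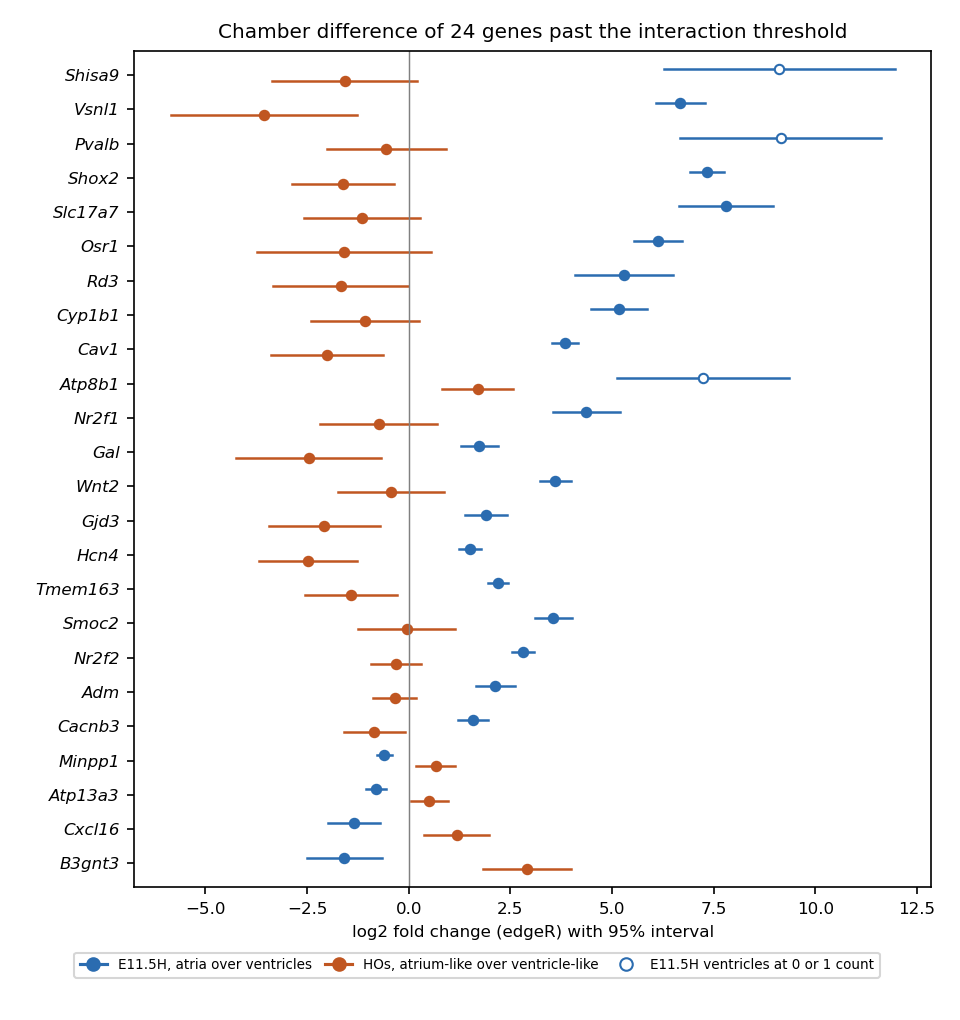
Fitted log2 fold change with 95% interval of 24 of the 25 genes past the interaction threshold, ordered by the interaction, in E11.5H (blue, atria over ventricles) and in HOs (orange, atrium-like over ventricle-like). Open points mark Shisa9, Pvalb and Atp8b1, whose counts in E11.5H ventricles were 0 or 1. For all genes plotted but Atp8b1 the points of the tissues lie on opposite sides of 0 here, while under the pan-cardiomyocyte scaling the HO point of 10 of the 25 changes sign.

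In the list of atrial and sinus node transcription factors the interaction was negative for 9 of 9 genes (median -2.89) against 8585 of 16494 over all genes tested (median -0.03), and 3 of the 9 passed. The interaction subtracts the embryonic difference, so lists of chamber genes are to be read beside all chamber genes. Of the 425 atrial genes of the embryo, 409 had a negative interaction (median -2.56). Of the 287 genes higher in the embryonic ventricles, 266 had a positive one (median 1.52). The 16 pan-cardiomyocyte genes, none of which differed past the threshold between the embryonic chambers, had a negative interaction in 16 of 16 (median -1.43), 9 at an unadjusted p under 0.05 (edgeR) and none past the threshold. Over all genes tested 1928 of 16494 had such an unadjusted p. On the pan-cardiomyocyte scaling the median was -1.80 for the transcription factors, beside 1.31 for all genes tested. The median of -0.06 for the pan-cardiomyocyte genes there is near 0 by construction, since their mean level sets that scale. Shox2 (chromosome 3 from 66971723 to 66981771 of GRCm38), a homeobox factor of the sinus venosus and sinus node, was at 12.7, 15.3 and 14.4 FPKM in E11.5H atria and 0.0669, 0.0855 and 0.0934 in E11.5H ventricles. HO levels of Shox2 were 0.525, 1.3 and 0.556 FPKM in HO atrium-like parts and 3.6, 1.88 and 2.43 in HO ventricle-like parts. The embryonic groups lay far apart with the atria high, and the HO groups did not overlap either, but with the ventricle-like parts high, where 13.3% of all genes tested in HOs had parts that did not overlap. Its log2 fold change was 7.34 in E11.5H and -1.61 (95% interval -2.86 to -0.36) in HOs, with an interaction of -8.94 (standard error 0.56, edgeR adjusted p = 1.93e-04), and the HO difference shrank to -0.06 under the pan-cardiomyocyte scaling. Nr2f2 (chromosome 7 from 70351950 to 70366746) was at 17.5, 16.6 and 16.7 FPKM in E11.5H atria and 2.18, 2.13 and 2.57 in E11.5H ventricles. HO levels of Nr2f2 were 3.37, 6.72 and 3.84 FPKM in HO atrium-like parts and 6.65, 6.58 and 5.76 in HO ventricle-like parts, levels between those of the embryonic chambers with overlapping groups. Its log2 fold change was 2.81 in E11.5H and -0.31 (95% interval -0.92 to 0.30) in HOs, where it became 1.17 under the pan-cardiomyocyte scaling, and the interaction was -3.11 (standard error 0.27, edgeR adjusted p = 0.00285). Its interaction under that scaling was -1.82 (edgeR adjusted p = 0.14), which ended the call. Nr2f1 (chromosome 13 from 78188975 to 78198873), its paralog, was at 11.2, 13 and 11.9 FPKM in E11.5H atria and 0.8000, 0.695 and 0.163 in E11.5H ventricles. HO levels of Nr2f1 were 0.655, 1.998 and 0.911 FPKM in HO atrium-like parts and 2.73, 2.56 and 1.12 in HO ventricle-like parts. The interaction of Nr2f1 was -5.10 (standard error 0.81, edgeR adjusted p = 0.0488). It passed in 2 of the 12 fits with a library left out and missed in limma-voom (adjusted p = 0.0501). The HO difference of Nr2f1 was -0.74 (95% interval -2.18 to 0.70), with overlapping parts. Under the pan-cardiomyocyte scaling that difference was 0.54, and the interaction did not pass (edgeR adjusted p = 0.11). Nr2f1 and Nr2f2 overlap the long non-coding genes A830082K12Rik and B130024G19Rik on the opposite strand, and the sources used here do not state whether strand was counted.

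Tbx5 was at 42, 48.9 and 39.9 FPKM in E11.5H atria and 12.3, 14.1 and 13.1 in E11.5H ventricles. HO levels of Tbx5 were 1.95, 5.78 and 5.41 FPKM in HO atrium-like parts and 14.4, 7.03 and 12.2 in HO ventricle-like parts. The embryonic order of the chambers was thus turned in the libraries of HOs, without overlap, although the HO log2 fold change of -1.24 became 0.20 under the pan-cardiomyocyte scaling, and the interaction of -2.89 missed the threshold (edgeR adjusted p = 0.0651). Tbx18, a factor of the sinus horns and the epicardium, was at 0.119, 0.492 and 0.223 FPKM in HO atrium-like parts and 3.02, 0.621 and 0.534 in HO ventricle-like parts, against 26.8 to 32.4 FPKM in E11.5H atria. Of the 9 listed factors 6 were past the threshold as atrial genes in E11.5H, and Tbx18 and Isl1 were not among them. Hey1, Tbx3 and Isl1 had interactions of -2.79, -1.39 and -1.87, none past the threshold (edgeR adjusted p from 0.228 to 0.472). Tbx3, which marks the conduction system, overlapped between the HO parts at levels near or above the E11.5H atria, at 14.2, 21.8 and 17.8 FPKM in HO atrium-like parts and 10.5, 40.7 and 14 in HO ventricle-like parts against 7.71 to 11.7 FPKM. Osr1 (chromosome 12 from 9574442 to 9581500), a zinc finger factor of the second heart field and the septum, was at 23, 25.7 and 25.9 FPKM in E11.5H atria and 0.465, 0.401 and 0.135 in E11.5H ventricles. HO levels of Osr1 were 1.75, 5.3 and 7.32 FPKM in HO atrium-like parts and 34.8, 5.48 and 6.59 in HO ventricle-like parts. The highest HO value came from ventricle-like replicate 1, the library with the highest level of the epicardium list, and the HO groups overlapped, with an interaction of -7.73 (standard error 1.14, edgeR adjusted p = 0.039).

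The sequences upstream of Shox2, Nr2f2 and Hcn4 are shown because the former pair passed in every fit with a library left out and Hcn4 encodes the main pacemaker channel. They are the 250 bases before the RefSeq start on the strand of the gene in GRCm38.p6, 5′ to 3′, and capitals mark the letters of a searched motif on either strand.
Shox2, chr3:66981772-66982021, minus strand: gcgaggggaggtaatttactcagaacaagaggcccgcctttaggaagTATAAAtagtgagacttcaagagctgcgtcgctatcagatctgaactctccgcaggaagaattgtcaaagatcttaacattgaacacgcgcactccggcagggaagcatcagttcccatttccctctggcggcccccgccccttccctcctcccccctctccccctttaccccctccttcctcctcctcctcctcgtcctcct
Nr2f2, chr7:70366747-70366996, minus strand: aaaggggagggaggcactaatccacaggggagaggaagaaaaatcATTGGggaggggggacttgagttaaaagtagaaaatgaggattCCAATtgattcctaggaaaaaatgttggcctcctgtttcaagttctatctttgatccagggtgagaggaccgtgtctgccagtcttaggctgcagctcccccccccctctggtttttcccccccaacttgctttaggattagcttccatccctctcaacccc
Hcn4, chr9:58822699-58822948, plus strand: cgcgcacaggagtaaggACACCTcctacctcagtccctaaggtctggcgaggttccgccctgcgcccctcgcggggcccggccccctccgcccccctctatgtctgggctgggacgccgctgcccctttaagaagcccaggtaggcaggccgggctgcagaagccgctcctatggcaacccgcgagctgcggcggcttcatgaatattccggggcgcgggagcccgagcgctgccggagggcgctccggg
RefSeq promoters were matched for 17 of the 25 genes. The T-box motif AGGTGT was in the window of 3 of the 17 (Hcn4, Gal and Pvalb), against 11.8% of all 32851 promoters, and it is the marked match of Hcn4. The nuclear receptor motif AGGTCA (14% of all promoters) and the GATA motif AGATAA (9.99%) were in none of the 17. CCAAT, marked in Nr2f2, was in 6 of the 17 (33.8% of all), and TATAAA, marked in Shox2, in 2 (12.4% of all). Each window shown held 1 of these motifs, so no marked letters overlap between motifs, and a match describes letters alone.

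Channels and pacemaker genes formed the next group. Hcn4 (chromosome 9 from 58822949 to 58863174), the main pacemaker channel of the sinus node, was at 10.4, 13.7 and 10.8 FPKM in E11.5H atria and 4.27, 3.64 and 3.76 in E11.5H ventricles. HO levels of Hcn4 were 0.462, 1.46 and 1.33 FPKM in HO atrium-like parts and 9.58, 4.41 and 5.54 in HO ventricle-like parts. Every ventricle-like library lay above every atrium-like library and also above the E11.5H ventricles, and the log2 fold change was 1.51 in E11.5H and -2.47 (95% interval -3.68 to -1.27) in HOs, with an interaction of -3.97 (standard error 0.53, edgeR adjusted p = 0.0323) that was -2.80 (edgeR adjusted p = 0.103) under the pan-cardiomyocyte scaling. Vsnl1 (chromosome 12 from 11325245 to 11436649), a neuronal calcium sensor also found in atrial and sinus node myocytes, was at 25.7, 25.3 and 27.7 FPKM in E11.5H atria and 0.306, 0.096 and 0.332 in E11.5H ventricles. HO levels of Vsnl1 were 0.162, 0.472 and 0.0952 FPKM in HO atrium-like parts and 6.09, 1.56 and 1.59 in HO ventricle-like parts. The HO atrium-like libraries were near the level of the E11.5H ventricles, and the interaction was -10.19 (standard error 1.09, edgeR adjusted p = 0.0121), with -9.20 to -10.96 when a library was left out. Cacnb3 (chromosome 15 from 98632328 to 98644536), a beta subunit of voltage-gated calcium channels, was at 7.91, 9.6 and 10.4 FPKM in E11.5H atria and 3.3, 3.33 and 2.3 in E11.5H ventricles. HO levels of Cacnb3 were 2.87, 7.44 and 5.59 FPKM in HO atrium-like parts and 10.7, 11.6 and 8.91 in HO ventricle-like parts. The interaction of Cacnb3 was -2.41 (standard error 0.37, edgeR adjusted p = 0.043). The HO difference of Cacnb3 went from -0.84 to 0.48 under the pan-cardiomyocyte scaling. Gjd3 (chromosome 11 from 98979947 to 98983020), a connexin of the mouse conduction system, was at 3.2, 3.61 and 3.72 FPKM in E11.5H atria and 0.73, 0.998 and 0.936 in E11.5H ventricles. HO levels of Gjd3 were 0.375, 0.566 and 0.62 FPKM in HO atrium-like parts and 2.99, 1.17 and 3.17 in HO ventricle-like parts, with the ventricle-like parts high and an interaction of -3.99 (standard error 0.59, edgeR adjusted p = 0.039).

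In the list of 12 ion channels of the action potential the interaction was negative for 12 of 12 genes (median -2.41), 2 of which passed, Hcn4 among them, and the summed level was 46.6 to 140.5 CPM in the atrium-like part of HOs and 251 to 386 CPM in the ventricle-like part, so that the groups did not overlap. Under the pan-cardiomyocyte scaling, which raised the median of all genes by 1.34, the median interaction of the list was -1.04, beside 1.31 for all genes tested. Kcnd2, a subunit of the transient outward potassium channel, was at 3.24, 1.85 and 2.4 FPKM in E11.5H atria and 1.13, 0.619 and 0.765 in E11.5H ventricles. HO levels of Kcnd2 were 0.0724, 0.311 and 0.289 FPKM in HO atrium-like parts and 1.27, 2.08 and 0.418 in HO ventricle-like parts. The acetylcholine-gated potassium channel of atrial myocytes is built from Kcnj3 and Kcnj5. Kcnj5 was at 21, 20.8 and 22.9 FPKM in E11.5H atria and 8.11, 11.3 and 8.7 in E11.5H ventricles. HO levels of Kcnj5 were 0.456, 1.24 and 1.91 FPKM in HO atrium-like parts and 10.1, 3.67 and 7.93 in HO ventricle-like parts. For Kcnj3 the difference on the log2 scale was 2.06 between embryonic chambers and -1.97 (95% interval -3.90 to -0.03) between HO parts. For Kcnd2, Kcnj3 and Kcnj5 the embryonic atria were high and the HO ventricle-like parts were high without overlap, also with a negative HO difference under the pan-cardiomyocyte scaling, but the interactions of -3.84, -4.01 and -3.59 missed the threshold (edgeR adjusted p = 0.168, 0.0912 and 0.088). Kcna5, the atrial ultrarapid potassium channel, was low in HOs, at 0.0116, 0.677 and 0.624 FPKM in HO atrium-like parts and 0.549, 1.54 and 0.216 in HO ventricle-like parts against 21.3, 24.7 and 20.04 FPKM in E11.5H atria.

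Secreted, membrane and enzyme genes of the embryonic atria made up the rest of the lower group. Wnt2 (chromosome 6 from 17988940 to 18030445), a ligand made in the venous pole, was at 37.1, 41.8 and 29.9 FPKM in E11.5H atria and 2.83, 3.46 and 2.22 in E11.5H ventricles. HO levels of Wnt2 were 5.53, 4.26 and 5.2 FPKM in HO atrium-like parts and 12.2, 7.72 and 3.19 in HO ventricle-like parts. Smoc2 (chromosome 17 from 14279506 to 14404790), a secreted calcium-binding matrix protein, was at 20.2, 34.8 and 26.4 FPKM in E11.5H atria and 1.82, 2.48 and 2.27 in E11.5H ventricles. HO levels of Smoc2 were 3.84, 3.57 and 3.24 FPKM in HO atrium-like parts and 6.86, 2.29 and 3.34 in HO ventricle-like parts. In both genes the HO groups overlapped at levels near the E11.5H ventricles or a few fold above them, with interactions of -4.03 (standard error 0.58, edgeR adjusted p = 0.039) and -3.60 (standard error 0.54, edgeR adjusted p = 0.0398), and the HO differences of -0.43 and -0.05 became 1.13 and 1.70 under the pan-cardiomyocyte scaling, where neither interaction passed (edgeR adjusted p = 0.135 and 0.15). Smoc2 overlaps 4930474M22Rik on the opposite strand. Adm (chromosome 7 from 110627657 to 110629820), the vasodilator peptide adrenomedullin, was at 25, 23.3 and 21.1 FPKM in E11.5H atria and 3.96, 4.36 and 6.75 in E11.5H ventricles. HO levels of Adm were 28.6, 41.4 and 39.5 FPKM in HO atrium-like parts and 63.7, 49.7 and 42.1 in HO ventricle-like parts. All HO libraries were thus above the embryonic atria, the ventricle-like parts highest without overlap, and the chamber difference of 2.13 in E11.5H was -0.35 (95% interval -0.88 to 0.18) in HOs and 1.14 under the pan-cardiomyocyte scaling. Its interaction of -2.47 (standard error 0.33, edgeR adjusted p = 0.0325) was -1.16 (edgeR adjusted p = 0.247) under that scaling. Gal (chromosome 19 from 3409915 to 3414544), the neuropeptide galanin, was at 20.2, 23.1 and 15.4 FPKM in E11.5H atria and 6.02, 5.74 and 5.03 in E11.5H ventricles. HO levels of Gal were 0.399, 0.524 and 0.975 FPKM in HO atrium-like parts and 3.02, 6.49 and 2.39 in HO ventricle-like parts, with the HO ventricle-like parts high and an interaction of -4.18 (standard error 0.63, edgeR adjusted p = 0.0398). The standard error of the HO difference of Gal alone was 0.73, and its interaction did not pass in limma-voom (adjusted p = 0.258).

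Cav1 (chromosome 6 from 17306335 to 17341328), the main protein of caveolae, was at 107, 118 and 118 FPKM in E11.5H atria and 6.71, 6.61 and 9.41 in E11.5H ventricles. HO levels of Cav1 were 1.97, 11.4 and 4.54 FPKM in HO atrium-like parts and 21.6, 20.1 and 34.5 in HO ventricle-like parts. It stayed below the embryonic atria in all HO libraries, was higher in the ventricle-like parts without overlap and had an interaction of -5.84 (standard error 0.67, edgeR adjusted p = 0.0187). Cyp1b1 (chromosome 17 from 79706941 to 79715061), a cytochrome P450 that metabolizes estrogens and retinoids, was at 4.59, 7.66 and 6.01 FPKM in E11.5H atria and 0.187, 0.21 and 0.0787 in E11.5H ventricles. HO levels of Cyp1b1 were 9.41, 49.2 and 22.3 FPKM in HO atrium-like parts and 83.8, 39.99 and 56.6 in HO ventricle-like parts. In this gene every HO library exceeded the embryonic atria, with an interaction of -6.25 (standard error 0.76, edgeR adjusted p = 0.0246). The HO difference of Cyp1b1 went from -1.08 to 0.30 under the pan-cardiomyocyte scaling. Tmem163 (chromosome 1 from 127490342 to 127678021), a zinc transporter, was at 44.6, 41.6 and 45.5 FPKM in E11.5H atria and 9.66, 7.83 and 9.7 in E11.5H ventricles. HO levels of Tmem163 were 1.1, 3.16 and 3.97 FPKM in HO atrium-like parts and 8.27, 6.65 and 9.26 in HO ventricle-like parts. The interaction of Tmem163 was -3.62 (standard error 0.48, edgeR adjusted p = 0.0323). The vesicular glutamate transporter Slc17a7 (chromosome 7 from 45163921 to 45176139) was at 9.68, 10.2 and 11.9 FPKM in E11.5H atria and 0.0106, 0 and 0.127 in E11.5H ventricles. HO levels of Slc17a7 were 0.464, 1.74 and 1.2 FPKM in HO atrium-like parts and 3.63, 1.49 and 2.99 in HO ventricle-like parts. The interaction of Slc17a7 was -8.90 (standard error 1.30, edgeR adjusted p = 0.039). The HO difference of Slc17a7 went from -1.15 to 0.31 under the pan-cardiomyocyte scaling.

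The remaining genes of the lower group were low in both chambers of E11.5H and near 0 in the ventricles. Rd3 (chromosome 1 from 191977370 to 191988282), known for its role in photoreceptors, was at 0.821, 1.42 and 1.26 FPKM in E11.5H atria and 0.0439, 0.0145 and 0.0238 in E11.5H ventricles. HO levels of Rd3 were 0.237, 0.29 and 0.914 FPKM in HO atrium-like parts and 2.17, 1.13 and 1.89 in HO ventricle-like parts. The interaction of Rd3 was -6.97 (standard error 0.93, edgeR adjusted p = 0.0323). Pvalb (chromosome 15 from 78191112 to 78206400), the calcium buffer parvalbumin, was at 1.94, 2.01 and 2.5 FPKM in E11.5H atria and 0 in all 3 libraries in E11.5H ventricles. HO levels of Pvalb were 0.972, 3.02 and 1.15 FPKM in HO atrium-like parts and 3.22, 2.52 and 2.38 in HO ventricle-like parts. Shisa9 (chromosome 16 from 11984113 to 12270904), an auxiliary protein of AMPA receptors, was at 0.204, 0.643 and 0.509 FPKM in E11.5H atria and 0 in all 3 libraries in E11.5H ventricles. HO levels of Shisa9 were 0.123, 0.256 and 0.241 FPKM in HO atrium-like parts and 0.738, 1.07 and 0.242 in HO ventricle-like parts. Against a floor of 3 counts per library, Pvalb was at least 23.7-fold and Shisa9 at least 23.3-fold higher in E11.5H atria, while the HO groups of both overlapped, and their fitted interactions of -9.67 (standard error 1.05, edgeR adjusted p = 0.0323) and -10.65 (standard error 1.35, edgeR adjusted p = 0.039) depend on the prior count and are no bounds. Atp8b1 (chromosome 18 from 64528979 to 64661000), a phospholipid flippase of epithelial membranes, was at 0.254, 0.456 and 0.354 FPKM in E11.5H atria and 0, 0.00481 and 0 in E11.5H ventricles. HO levels of Atp8b1 were 13.7, 11.4 and 6.63 FPKM in HO atrium-like parts and 3.24, 4.57 and 3.52 in HO ventricle-like parts. It was higher on the atrial side in both tissues and at a level in HOs far above E11.5H, and with a single count over the E11.5H ventricles its interaction of -5.55 (standard error 0.79, edgeR adjusted p = 0.039) rests on that near absence.

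The 4 genes with a positive interaction were higher in the embryonic ventricles and in the HO atrium-like parts. B3gnt3 (chromosome 8 from 71691720 to 71701800), a glycosyltransferase of mucin-type chains, was at 0.417, 0.692 and 1.06 FPKM in E11.5H atria and 1.68, 2.3 and 2.19 in E11.5H ventricles. HO levels of B3gnt3 were 11.8, 19.96 and 14.7 FPKM in HO atrium-like parts and 1.32, 1.86 and 3.68 in HO ventricle-like parts. The HO atrium-like libraries stood above all others, with a log2 difference of -1.58 between embryonic chambers, 2.91 (95% interval 1.84 to 3.99) between HO parts and an interaction of 4.49 (standard error 0.62, edgeR adjusted p = 0.0326). Cxcl16 (chromosome 11 from 70454389 to 70459984), a membrane-bound chemokine that overlaps Zmynd15 on the opposite strand, was at 1.23, 1.22 and 1.28 FPKM in E11.5H atria and 2.88, 3.53 and 2.59 in E11.5H ventricles. HO levels of Cxcl16 were 23.3, 19.8 and 18.4 FPKM in HO atrium-like parts and 13.7, 7.61 and 9.78 in HO ventricle-like parts. The interaction of Cxcl16 was 2.52 (standard error 0.37, edgeR adjusted p = 0.039). Minpp1 (chromosome 19 from 32485769 to 32515370), an inositol polyphosphate phosphatase, was at 32.3, 34.4 and 31.8 FPKM in E11.5H atria and 46.6, 53.8 and 41.8 in E11.5H ventricles. HO levels of Minpp1 were 39.9, 39.3 and 46.9 FPKM in HO atrium-like parts and 26.9, 30.8 and 33.1 in HO ventricle-like parts. Atp13a3 (chromosome 16 from 30312424 to 30388530), a polyamine transporter, was at 4.26, 4.75 and 4.24 FPKM in E11.5H atria and 7.1, 8.44 and 6.59 in E11.5H ventricles. HO levels of Atp13a3 were 11.48, 15.8 and 11.1 FPKM in HO atrium-like parts and 10.7, 8.91 and 10.7 in HO ventricle-like parts. Minpp1 and Atp13a3 had embryonic differences of under 1 on the log2 scale, at -0.60 and -0.81, and interactions of 1.26 (standard error 0.20, edgeR adjusted p = 0.0477) and 1.32 (standard error 0.21, edgeR adjusted p = 0.0477). Beside these values, the gut epithelium list had a positive HO log2 fold change in 12 of 12 genes (median 1.43), with 0 of the 12 intervals above 0. Its part in the positive interactions was not tested.

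**Figure D3:**
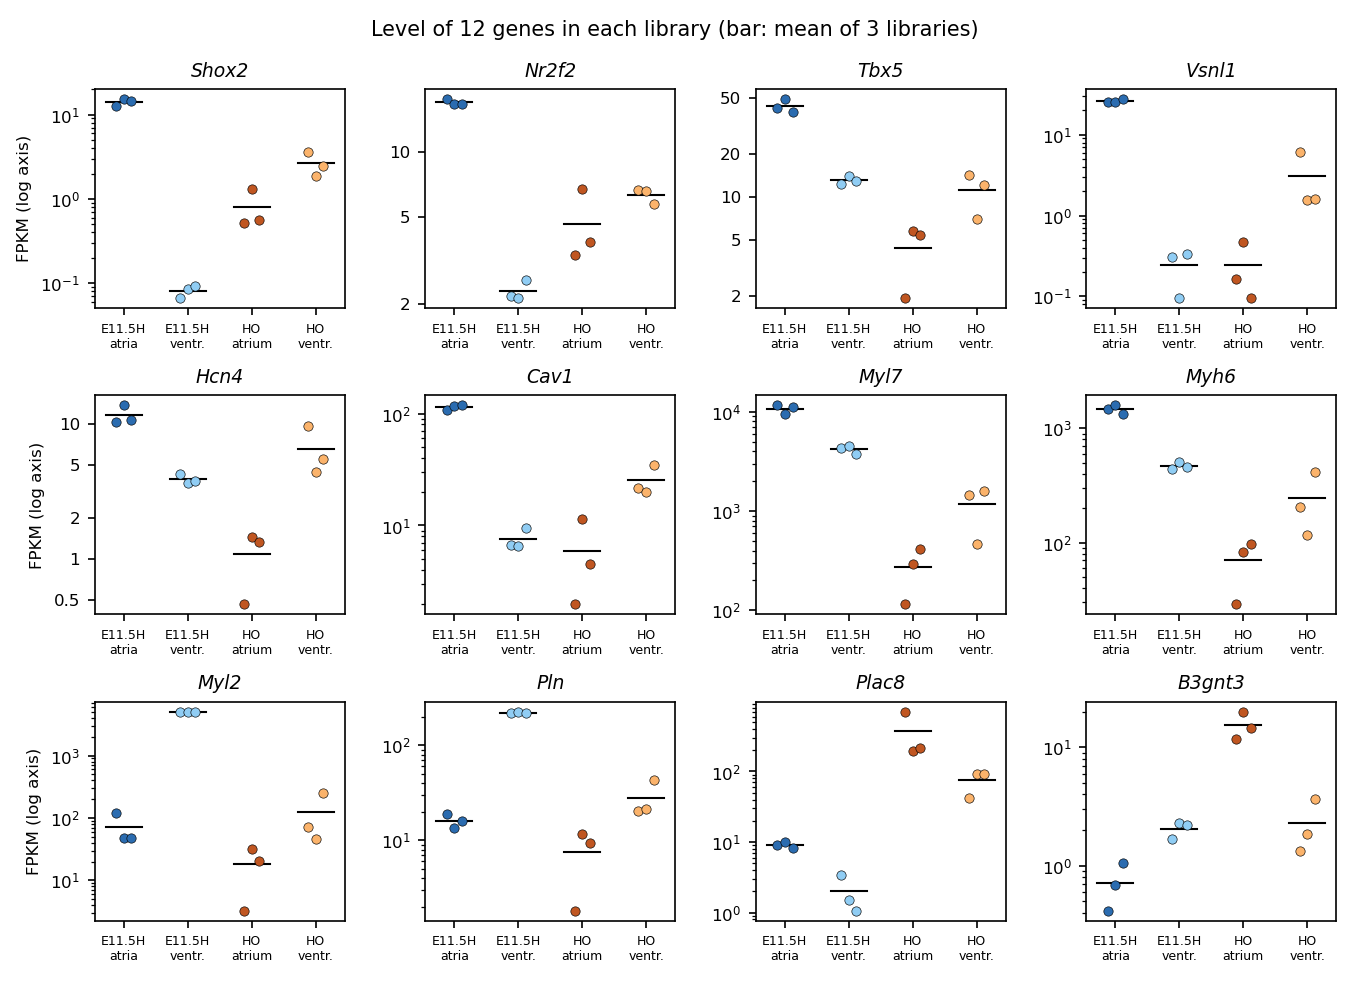
FPKM of 12 genes in each library on a log axis, with 3 points and a bar for their mean in each group. Shox2, Tbx5, Vsnl1, Hcn4, Cav1, Myl7 and Myh6 are higher in E11.5H atria than ventricles and higher in HO ventricle-like than atrium-like parts, Nr2f2 overlaps in HOs, Myl2 and Pln are higher in ventricles and ventricle-like parts, Plac8 in atria and atrium-like parts, and B3gnt3 in E11.5H ventricles and HO atrium-like parts. Under the pan-cardiomyocyte scaling the HO fold change of Nr2f2 and Tbx5 changes sign and the other 10 keep theirs.

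To describe the chamber difference beyond these genes, the 712 genes past the same threshold between the chambers of E11.5H (4.9% of 14536 tested, 425 higher in atria and 287 in ventricles) were sorted by their HO log2 fold change alone. A gene was called kept when the 95% interval of its HO fold change lay on the embryonic side of 0, turned when it lay on the other side, lost when it held 0 and not the embryonic value, and unresolved when it held both. Of 651 genes tested in HOs, 27 were kept, 43 turned, 304 lost and 277 unresolved, while 52 were not detected in HOs, that is at most 3 counts in each HO library or a mean under 1 CPM in both parts and removal by the filter on low counts, and 9 gave no interval. The sign was the embryonic one in 279 of the 651, and the median HO fold change, counted toward the embryonic side, was -0.14 where the median embryonic size was 1.71. No gene passed the threshold between the HO parts themselves, 0 of 15703 (0%), with 889 at an unadjusted p under 0.05 in edgeR, 59 calls in DESeq2 and 0 in limma-voom.

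The classes were counted by embryonic side, and the difference between the sides was not tested. Of 382 atrial genes tested in HOs, 34 were turned (8.90%) and 17 kept (4.45%), beside 2.38% of all genes with an HO interval below 0 and 3.28% with one above 0. Of 269 ventricular genes, 10 were kept (3.72%) and 9 turned (3.35%), beside the same 2.38% below and 3.28% above 0, so that the share of kept atrial genes and of turned and kept ventricular genes was near the background. The median HO fold change was -0.54 for the atrial and -0.22 for the ventricular genes. The atrial genes are thus where the turned class exceeded the background, and that count depends on the scale, since with scaling to the pan-cardiomyocyte list 7 atrial genes were turned and 93 kept. On the ventricular side 38 genes were turned and 3 kept with that scaling. These counts go with a shift of all genes, since 4928 of 15703 genes tested in HOs had an unadjusted p under 0.05 there (edgeR). Of the genes past the threshold between HO parts with that scaling, 1315 were higher in the atrium-like part and 6 lower. Of the 34 turned atrial genes 28 still had a negative HO fold change on that scale, with a median of -0.63 where all genes had a median of 1.5. Without HO atrium-like replicate 1 there were 19 turned and 9 kept atrial genes, and without HO ventricle-like replicate 1 there were 14 and 9. Over all genes, 445 of 16283 and 385 of 16270 had an unadjusted p under 0.05 in these fits (edgeR). On the ventricular side 25 genes were kept and 15 turned without HO atrium-like replicate 2, and 4 and 26 were turned without HO ventricle-like replicates 1 and 3. Over all genes, 2153 of 16173 had an unadjusted p under 0.05 without HO atrium-like replicate 2, and 1531 of 16237 without HO ventricle-like replicate 3 (edgeR). Among the 21 lower interaction genes were 10 turned, 10 lost and 1 kept atrial genes.

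**Figure D4:**
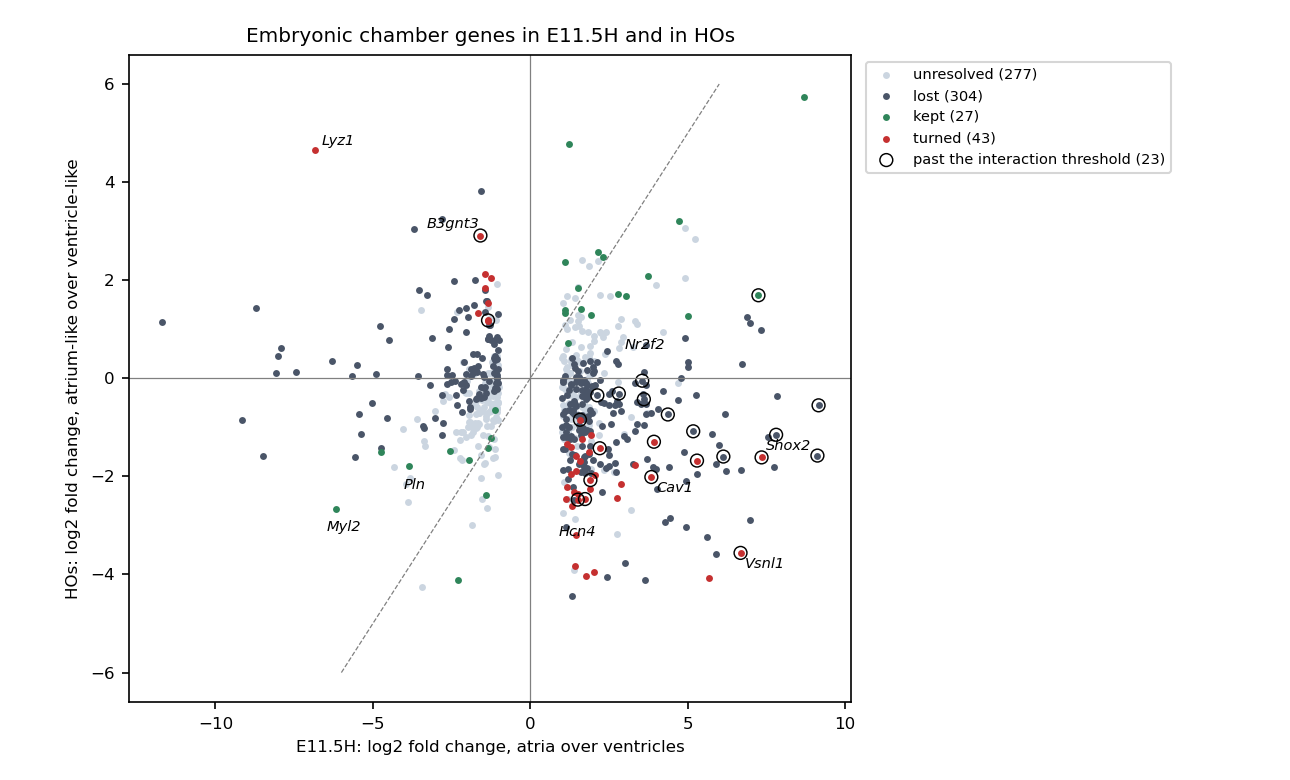
Log2 fold change of 651 embryonic chamber genes in E11.5H (horizontal axis, atria over ventricles) and in HOs (vertical axis, atrium-like over ventricle-like), coloured by class, with circles around the 23 that also passed the interaction threshold. The dashed line marks equal differences in both tissues. Of the atrial genes on the right, 34 are turned and 17 kept, and of the ventricular genes on the left, 9 are turned and 10 kept. Under the pan-cardiomyocyte scaling the HO axis shifts upward by 1.52 at the median.

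Among genes with at least 5 CPM in the higher group, the kept genes of the ventricular side with large HO differences included Myl2, Eef1a2, Pln and Fzd9. Myl2 (chromosome 5 from 122100951 to 122106854), the ventricular regulatory light chain, was at 120.3, 47.7 and 47.9 FPKM in E11.5H atria and 4954, 4954 and 5037 in E11.5H ventricles. HO levels of Myl2 were 3.25, 31.3 and 20.5 FPKM in HO atrium-like parts and 70.5, 45.8 and 254 in HO ventricle-like parts. Its HO difference of -2.67 (95% interval -4.96 to -0.38) kept the embryonic direction without overlap, also under the pan-cardiomyocyte scaling (-1.08), but at a small share of the embryonic level. Pln (chromosome 10 from 53337686 to 53345999), the phospholamban that restrains the calcium pump SERCA, overlaps Cep85l on the opposite strand and was at 19.1, 13.4 and 16 FPKM in E11.5H atria and 218, 226 and 218 in E11.5H ventricles. HO levels of Pln were 1.82, 11.6 and 9.39 FPKM in HO atrium-like parts and 20.2, 21.3 and 43.1 in HO ventricle-like parts, with HO log2 fold changes of -1.80 (95% interval -3.36 to -0.24) and, under the pan-cardiomyocyte scaling, -0.43. Fzd9, a Wnt receptor, was at 1.87, 1.41 and 1.37 FPKM in E11.5H atria and 7.24, 6.5 and 3.66 in E11.5H ventricles. HO levels of Fzd9 were 0.414, 1.93 and 1.41 FPKM in HO atrium-like parts and 3.81, 4.93 and 4.08 in HO ventricle-like parts. Eef1a2, a muscle and neuron form of the elongation factor, was under 2 FPKM in every library.

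The kept genes of the atrial side were led by Dct, Lama1, Plac8, Slc7a7 and Gprin3. Plac8 (chromosome 5 from 100553726 to 100572205), a small cysteine-rich protein of epithelial and immune cells, was at 9.19, 10.04 and 8.33 FPKM in E11.5H atria and 3.41, 1.52 and 1.06 in E11.5H ventricles. HO levels of Plac8 were 702, 193 and 212 FPKM in HO atrium-like parts and 42.5, 91.9 and 92.1 in HO ventricle-like parts. The direction was the same in both tissues without overlap, at levels in HOs far above E11.5H, and its interaction was 0.43 (edgeR adjusted p = 0.88). Gprin3, a G protein regulated inducer of neurite outgrowth, was at 8.21, 8.6 and 10.2 FPKM in E11.5H atria and 4.15, 4.52 and 3.28 in E11.5H ventricles. HO levels of Gprin3 were 6.53, 3.995 and 2.58 FPKM in HO atrium-like parts and 0.97, 1.24 and 0.762 in HO ventricle-like parts, also without overlap. Slc7a7, an amino acid transporter that overlaps Oxa1l on the opposite strand, changed by 2.31 on the log2 scale between embryonic chambers and by 2.47 (95% interval 0.46 to 4.48) between HO parts. HO levels of Slc7a7 were 42.4, 11.8 and 21.2 FPKM in HO atrium-like parts and 3.24, 2.29 and 10.9 in HO ventricle-like parts, so that the groups nearly met. Dct, a melanocyte enzyme, and Lama1, a laminin chain, were highest in a single library each, with 6.52 FPKM of Dct in atrium-like replicate 1 (0.548 and 0.557 in the others) and 63.1 FPKM of Lama1 in atrium-like replicate 2 (0.510 and 4.60), and the HO groups of Lama1 overlapped.

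By the same limit of 5 CPM, the turned genes of the atrial side with the largest HO difference were Aqp5, Dpysl5, Vsnl1, Tmem151a and Hcn4. Aqp5, a water channel of secretory epithelia, was at 3.88, 3.18 and 3.38 FPKM in E11.5H atria and 1.09, 0.969 and 0.873 in E11.5H ventricles. HO levels of Aqp5 were 0, 1.27 and 1.49 FPKM in HO atrium-like parts and 16.6, 2.33 and 29.3 in HO ventricle-like parts. Dpysl5, a protein of growing axons, was at 0.133, 0.53 and 0.0976 FPKM in HO atrium-like parts and 1.18, 9.997 and 0.519 in HO ventricle-like parts, with overlapping groups and its highest value in ventricle-like replicate 2. Tmem151a, a membrane protein, was at 9.19, 7.12 and 10.3 FPKM in E11.5H atria and 3.76, 3.58 and 2.74 in E11.5H ventricles. HO levels of Tmem151a were 0.372, 1.14 and 0.195 FPKM in HO atrium-like parts and 5.84, 4.37 and 0.79 in HO ventricle-like parts, again with overlap. The turned genes of the ventricular side were led by Lyz1, B3gnt3, Lgals9, F3 and Retreg1. Lyz1, a lysozyme of Paneth cells and some myeloid cells whose fragments may be shared with Lyz2, was at 0.156, 0 and 0 FPKM in E11.5H atria and 5.12, 6.28 and 7.16 in E11.5H ventricles. HO levels of Lyz1 were 4.52, 3.91 and 5.25 FPKM in HO atrium-like parts and 0.121, 0.0242 and 0.463 in HO ventricle-like parts. The HO and embryonic orders of Lyz1 were opposite without overlap, and its fitted interaction of 11.48 (edgeR adjusted p = 0.0552) missed the threshold. It passed under the pan-cardiomyocyte scaling (edgeR adjusted p = 0.00992), in limma-voom (adjusted p = 0.0178) and in DESeq2 (adjusted p = 1.63e-11). Lgals9, a galectin, was at 8.26, 7.16 and 10.1 FPKM in E11.5H atria and 24.6, 19.7 and 21.6 in E11.5H ventricles. HO levels of Lgals9 were 431, 150.2 and 279.7 FPKM in HO atrium-like parts and 41.9, 52.6 and 139.5 in HO ventricle-like parts. Retreg1, a receptor for degradation of the endoplasmic reticulum, was at 5.75, 5.12 and 5.66 FPKM in E11.5H atria and 12.3, 14.4 and 16.4 in E11.5H ventricles. HO levels of Retreg1 were 16.1, 12.1 and 17.6 FPKM in HO atrium-like parts and 2.21, 3.87 and 8.76 in HO ventricle-like parts. F3, the tissue factor of coagulation, overlapped between the HO parts, at 30.4, 339 and 93.2 FPKM in HO atrium-like parts and 39.4, 24.8 and 51.8 in HO ventricle-like parts.

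Among the lost genes were regulators of the embryonic ventricle. Hand1 (chromosome 11 from 57828713 to 57832147), a bHLH factor of the outer curvature of the left ventricle, was at 0.789, 0.172 and 0.6005 FPKM in E11.5H atria and 40.1, 42 and 36.2 in E11.5H ventricles. HO levels of Hand1 were 3.3, 2.25 and 40.9 FPKM in HO atrium-like parts and 9.7, 14 and 17.4 in HO ventricle-like parts. Irx4 (chromosome 13 from 73260497 to 73269620), a homeobox factor that marks ventricular myocytes, was at 1.89, 0.297 and 0.213 FPKM in E11.5H atria and 32.4, 41.1 and 36.6 in E11.5H ventricles. HO levels of Irx4 were 0.094, 0.658 and 2.47 FPKM in HO atrium-like parts and 0.399, 1.67 and 8.83 in HO ventricle-like parts. The HO values of both overlapped, and HO atrium-like replicate 3 reached the embryonic ventricular level of Hand1. The HO difference was 0.36 (95% interval -2.30 to 3.02) for Hand1. For Irx4 it was -1.61 (95% interval -5.07 to 1.85), on the embryonic side of 0. Sall4, a zinc finger factor of pluripotent and limb cells, was at 0, 0.0176 and 0 FPKM in E11.5H atria and 2.78, 2.3 and 2.83 in E11.5H ventricles. HO levels of Sall4 were 0.73, 6.48 and 6.05 FPKM in HO atrium-like parts and 0.217, 0.579 and 4.44 in HO ventricle-like parts. Mybpc1, the slow skeletal myosin binding protein C, was listed at 0 in the E11.5H atria and at 3.93, 4.46 and 1.08 FPKM in the ventricles, at least 139-fold higher against a floor of 3 counts per library, and at 0, 1.87 and 0.154 FPKM in HO atrium-like parts and 0.0614, 0.784 and 0.0775 in HO ventricle-like parts. The fitted interactions of Hand1, Irx4 and Sall4 lay between 3.94 and 10.14 with edgeR adjusted p from 0.0996 to 0.422, and none passed. Under the pan-cardiomyocyte scaling Hand1 passed at 7.58 and Sall4 at 11.56 (edgeR adjusted p = 0.0353 and 0.00992), and Sall4 also had an adjusted p of 0.0465 in limma-voom. In DESeq2 Hand1, Sall4 and Mybpc1 had adjusted p of 2.44e-05, 6.59e-07 and 3.27e-04, and Irx4 had 0.152. On the atrial side the lost class with large embryonic differences included Slc17a7, Gdf10, Shisa6 and Osr1. Gdf10, a TGF-beta family ligand, was at 1.52, 13.7 and 9.96 FPKM in E11.5H atria, with replicate 1 low, and Shisa6 was under 2 FPKM in every library.

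Of the 52 chamber genes labelled not detected in HOs, 35 were atrial. The label includes genes with a low mean that were not at 0, since the highest HO library held 52 counts of Hoxa5, 33 of Adamts18, 29 of Crnde and 27 of Hoxa4. The Hox genes Hoxc5, Hoxa5 and Hoxa4, factors of axial position that retinoic acid controls and that are expressed in the venous pole, were among the 5 with the largest embryonic difference, beside Adamts18 and Sstr5. Hoxa5 was at 3.76, 12.1 and 10.2 FPKM in E11.5H atria and 0.116, 0 and 0.0541 in E11.5H ventricles. HO levels of Hoxa5 were 0, 0.817 and 0 FPKM in HO atrium-like parts and 0.423, 0 and 0.0821 in HO ventricle-like parts. Hoxc5 was at 0.3001, 5.16 and 4.13 FPKM in E11.5H atria, listed at 0 in the E11.5H ventricles and at 0 in all 3 libraries in HO atrium-like parts and 0.0727, 0 and 0 in HO ventricle-like parts. All 3 Hox genes were lowest in E11.5H atria replicate 1. Of the ventricular genes not detected, Gtsf1, a factor of the piRNA pathway, was at 0.587, 0.863 and 0.427 FPKM in E11.5H atria and 29.1, 21.2 and 27.9 in E11.5H ventricles and at most 0.170 FPKM in HOs, and Gm826 and Crnde were also led by the ventricles. Hba-a2, an alpha globin, was highest in E11.5H ventricles replicate 3 and near 0 in HOs, where 10 erythroid genes summed to 2.36 to 18.9 CPM against 5235 to 50996 CPM in E11.5H. Bmp10, the ligand of trabecular growth, was at 5.46, 4.88 and 5.23 FPKM in E11.5H atria and 13.3, 15.1 and 13.6 in E11.5H ventricles and at most 0.0233 FPKM in HOs.

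Among 11 atrial cardiomyocyte genes the interaction was negative for 11 of 11 (median -3.26), 1 of which passed (Vsnl1). It was also negative for 409 of all 425 atrial genes of the embryo (median -2.56), and the 16 pan-cardiomyocyte genes had a median of -1.43. Under the pan-cardiomyocyte scaling the median of the 11 was -1.88, beside 1.31 for all genes tested. In E11.5H 8 of the 11 were chamber genes, 5 of them turned and 3 lost in HOs. Myl7, the atrial regulatory light chain, was at 11545, 9495 and 11168 FPKM in E11.5H atria and 4330.3, 4539.5 and 3786 in E11.5H ventricles. HO levels of Myl7 were 115, 291 and 415 FPKM in HO atrium-like parts and 1434, 463 and 1595 in HO ventricle-like parts. Myh6, the alpha myosin heavy chain, was at 1484, 1589 and 1328 FPKM in E11.5H atria and 445, 504 and 461 in E11.5H ventricles. HO levels of Myh6 were 28.8, 82.5 and 98.3 FPKM in HO atrium-like parts and 203, 117 and 417 in HO ventricle-like parts. Both were higher in HO ventricle-like parts without overlap, with HO differences of -1.96 and -1.69 that shrank to -0.43 and -0.10 under the pan-cardiomyocyte scaling, and interactions of -3.24 and -3.26 (edgeR adjusted p = 0.147 and 0.139). Sln, sarcolipin, the atrial regulator of SERCA, was at 55.5, 61.1 and 77.2 FPKM in E11.5H atria and 4.68, 3.75 and 5.99 in E11.5H ventricles. HO levels of Sln were 10.01, 34.2 and 3.19 FPKM in HO atrium-like parts and 16.2, 20.7 and 18.9 in HO ventricle-like parts. Stard10, a lipid transfer protein, was at 95.7, 95 and 108 FPKM in E11.5H atria and 6.67, 7.11 and 8.48 in E11.5H ventricles. HO levels of Stard10 were 62.8, 23.5 and 54.5 FPKM in HO atrium-like parts and 25.2, 8.56 and 70.1 in HO ventricle-like parts, and the HO parts overlapped for Sln and for Stard10. Myl4 and Gja5, a light chain and an atrial connexin, had embryonic differences under 1 (0.39 and 0.54), and Nppa, atrial natriuretic peptide, was at 1925 to 3058 FPKM in E11.5H and 0.528 to 8.75 FPKM in HOs.

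All 9 ventricular cardiomyocyte genes were chamber genes in E11.5H, and the interaction was positive for 9 of 9 (median 2.05, and 3.24 under the pan-cardiomyocyte scaling) with none past the threshold and 7 at an unadjusted p under 0.05 (edgeR). Over all genes tested 1928 of 16494 had such a p. The interaction subtracts the embryonic difference, and 266 of all 287 ventricular genes of the embryo had a positive one (median 1.52). The HO fold change itself lay on the embryonic, ventricular side for 8 of the 9 (median -1.15), with a median of 0.35 under the pan-cardiomyocyte scaling. It was also negative for 10 of the 11 atrial cardiomyocyte genes (median -1.83) and 16 of the 16 pan-cardiomyocyte genes (median -1.64). This direction was thus not particular to the ventricular genes. Under the pan-cardiomyocyte scaling 3 of the 9 passed the interaction threshold, Myl2 at 4.97, Myh7 at 5.81 and Hand1 at 7.58 (edgeR adjusted p = 0.0344, 0.0344 and 0.0353). In DESeq2 these 3 had adjusted p of 0.0169, 0.00729 and 2.44e-05, while Pln and Irx4 had 0.0635 and 0.152. In HOs 2 were kept (Myl2 and Pln), 5 lost (Myh7, Irx4, Hand1, Mb and Lbh) and 2 unresolved (Myl3 and Hey2). Myh7, the beta myosin heavy chain, which overlaps Mhrt on the opposite strand, was at 46.8, 32.1 and 20.5 FPKM in E11.5H atria and 1185, 1455 and 1278 in E11.5H ventricles. HO levels of Myh7 were 2.52, 3.52 and 12.9 FPKM in HO atrium-like parts and 3.82, 5.46 and 37.9 in HO ventricle-like parts. The HO difference of Myh7 was -1.15 (95% interval -3.71 to 1.42), on the embryonic side of 0, and 0.60 under the pan-cardiomyocyte scaling. Mb, myoglobin, which overlaps Apol6 on the opposite strand, was at 14.3, 12.3 and 12.5 FPKM in E11.5H atria and 83.8, 85.5 and 92.9 in E11.5H ventricles. HO levels of Mb were 3.62, 8.23 and 11.2 FPKM in HO atrium-like parts and 11.51, 14.6 and 30.6 in HO ventricle-like parts, a difference of -1.15 (95% interval -2.44 to 0.13) in HOs that turned to 0.35 under the pan-cardiomyocyte scaling. Lbh, a transcriptional regulator of the limb bud and heart, was at 11, 10.6 and 9.67 FPKM in E11.5H atria and 24.8, 29.9 and 26.2 in E11.5H ventricles. HO levels of Lbh were 9.55, 7.36 and 13.4 FPKM in HO atrium-like parts and 14.4, 9.73 and 15.2 in HO ventricle-like parts. Hey2, a Notch target of the compact wall, was at 7.82, 6.82 and 6.5 FPKM in E11.5H atria and 25, 29.7 and 23 in E11.5H ventricles. HO levels of Hey2 were 0, 1.13 and 1.18 FPKM in HO atrium-like parts and 0.808, 0.979 and 1.21 in HO ventricle-like parts. For Myl3, the ventricular essential light chain, the HO difference was -1.47 (95% interval -3.03 to 0.10), with overlapping parts.

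A ratio of an atrial to a ventricular gene within a library does not depend on how libraries are scaled, and 4 such pairs were chosen after their values were seen. Myl7 over Myl2, both in FPKM, was 96.0 to 233 in E11.5H atria and 0.752 to 0.916 in E11.5H ventricles. In the atrium-like part of HOs it was 9.29 to 35.4, and in the ventricle-like part 6.27 to 20.3, values that overlap and lie between the embryonic chambers. Myh6 over Myh7 was 31.7 to 64.9 in E11.5H atria and 0.347 to 0.376 in E11.5H ventricles, and 7.62 to 23.4 and 11 to 53.2 in HO atrium-like and ventricle-like parts, so that every HO library was far above the E11.5H ventricles. Myl4 over Myl3 was 2.89 to 4.20 and 0.480 to 0.502 in E11.5H, and 0.512 to 0.780 and 0.615 to 1.79 in HOs. Sln over Pln was 2.9 to 4.84 and 0.0166 to 0.0275 in E11.5H and 0.340 to 5.51 and 0.437 to 0.970 in HOs. On the log2 scale the ratios differed between E11.5H chambers by 7.61, 7.02, 2.83 and 7.55 (standard errors 0.40, 0.30, 0.16 and 0.31) in the order named. Between HO parts they differed by 0.79, -0.87, -0.59 and 1.34 (standard errors 0.75, 0.81, 0.52 and 1.27), each of a size near its standard error.

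**Figure D5:**
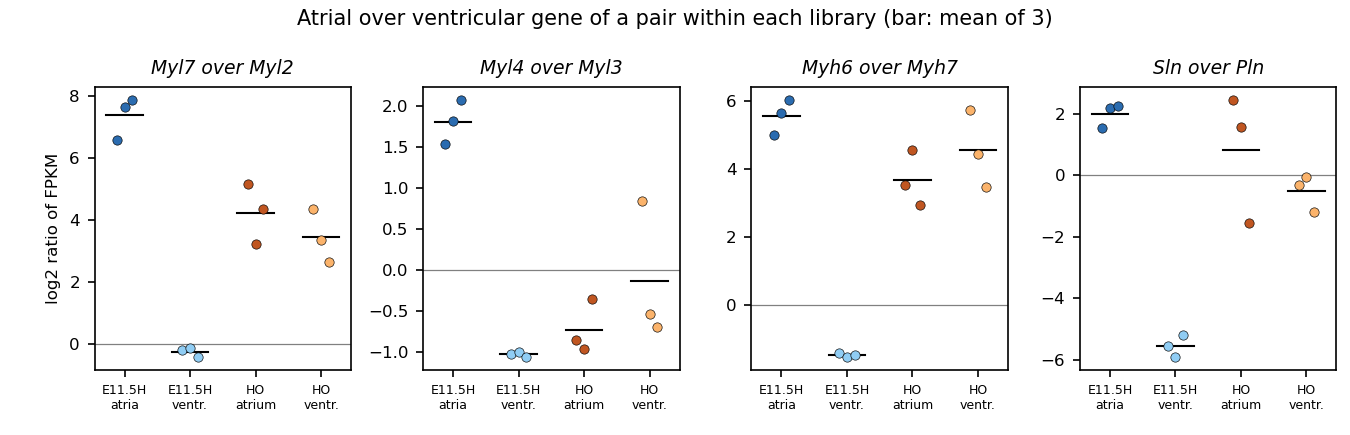
Log2 ratio of the FPKM of an atrial over a ventricular gene within each library, with 3 points and a bar for their mean in each group. In all 4 pairs the E11.5H chambers lie apart, the HO parts overlap and every HO library lies above the E11.5H ventricles. For Myl4 over Myl3 that gap is narrow, 0.512 at the lowest in HOs against 0.502 at the highest in E11.5H ventricles (linear ratios).

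Of the 12 trabecular and compact wall genes, 4 were ventricular in E11.5H (Bmp10, Irx3, Prdm16 and Gja1), of which 2 were lost, 1 unresolved and 1 not detected in HOs, with a median interaction of 0.10 over the list and none past the threshold. Gja1, the main connexin of working myocardium, was at 37.7, 38 and 37.5 FPKM in E11.5H atria and 114, 116 and 121 in E11.5H ventricles. HO levels of Gja1 were 12.7, 106 and 53.1 FPKM in HO atrium-like parts and 106, 120.4 and 45.1 in HO ventricle-like parts. Prdm16, a factor of compact myocardium that overlaps Gm13133 on the opposite strand, was at 0.184, 0.21 and 0.175 FPKM in E11.5H atria and 1.9, 1.54 and 1.85 in E11.5H ventricles. HO levels of Prdm16 were 3.28, 0.61 and 0.913 FPKM in HO atrium-like parts and 0.45, 0.281 and 1.08 in HO ventricle-like parts. Irx3, of the trabecular conduction system, was at 0.825, 1.32 and 1.34 FPKM in E11.5H atria and 7.52, 7.54 and 7.59 in E11.5H ventricles. HO levels of Irx3 were 0.384, 1.36 and 1.38 FPKM in HO atrium-like parts and 0.969, 3.99 and 1.47 in HO ventricle-like parts. Nrg1, Erbb2, Erbb4, Irx5, Mycn, Tbx20, Hand2 and Sema3a had embryonic differences between -0.93 and 0.45 and interactions between -1.08 and 2.03. The 10 calcium cycling genes were no chamber genes in E11.5H, and 8 of 10 had a negative interaction (median -0.89, and 0.37 under the pan-cardiomyocyte scaling).

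In the other lists no gene passed the interaction threshold. Of 14 retinoic acid genes 5 were chamber genes, with Aldh1a2, the retinoic acid synthase of the venous pole, at 43.1, 69.6 and 57 FPKM in E11.5H atria and 14.9, 16.9 and 18.7 in E11.5H ventricles. HO levels of Aldh1a2 were 5.26, 4.6 and 1.93 FPKM in HO atrium-like parts and 25.2, 2.82 and 0.354 in HO ventricle-like parts, and the gene was unresolved. Crabp2, a retinoic acid carrier, was at 1.86, 26 and 5.36 FPKM in HO atrium-like parts and 43.5, 54.1 and 24.2 in HO ventricle-like parts, with the ventricle-like parts high but for an overlap with atrium-like replicate 2. Of 7 epicardium genes in the file 3 were atrial (Upk1b, Lrrn4 and Sema3d), of which 2 were lost, and 7 of 7 had a negative interaction (median -3.16). The epicardium level in HO ventricle-like parts was 5.97, 1.04 and 3.50 in replicates 1, 2 and 3 on the log2(CPM + 0.5) scale, and Upk1b was at 4.9, 1.56 and 9.65 FPKM in HO atrium-like parts and 40.3, 0.986 and 36.1 in HO ventricle-like parts. The 8 smooth muscle genes had 3 atrial members, Myh11, Lmod1 and Actg2, all lost in HOs, with a median interaction of -1.39. Of 10 fibroblast and mesenchyme genes 4 were chamber genes (Col1a1, Col1a2 and Dcn atrial, Postn ventricular), all unresolved, and HO libraries ranged from 84.0 to 1835 FPKM for Col1a2. Vcan and Has2 of the 10 cushion and valve genes were ventricular, and Vcan, a proteoglycan of cardiac jelly, was lost, at 16, 14.8 and 13 FPKM in E11.5H atria and 40.9, 41.8 and 36.1 in E11.5H ventricles. HO levels of Vcan were 3.91, 13 and 6.43 FPKM in HO atrium-like parts and 5.89, 13.9 and 4.07 in HO ventricle-like parts. Macrophage genes had 6 chamber genes among 10, 1 lost and 5 unresolved, with Csf1r at 32.1, 13.4 and 15.6 FPKM in HO atrium-like parts and 12.8, 14 and 10.5 in HO ventricle-like parts. Of 10 endothelial and endocardial genes Cldn5 alone was a chamber gene, and 4 of 10 had a negative interaction (median 0.50). Erythroid (median 2.01), hepatocyte and visceral endoderm (1.45) and gut epithelium (1.30) lists had positive median interactions, and neural (-2.46) and skeletal muscle (-2.94) lists negative ones, while fibroblast, cushion, retinoic acid and macrophage lists stood at -0.24, 0.15, -0.91 and -1.40.

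The functions of the chamber genes were read from the biological process terms that the authors' table pairs with each gene, for terms with at least 10 of the 651 genes and at most 400 genes tested in HOs, and the terms named here were chosen after their counts were seen. Transmembrane transport had 29 chamber genes, of which 1 was kept, 7 turned, 15 lost and 6 unresolved. Potassium ion transport held 19, of which 14 were atrial, with 1 kept, 7 turned (Kcnj3, Kcnh7, Slc24a3, Kcnd2, Kcnj5 and Hcn4 among them), 7 lost and 4 unresolved, beside 43 turned and 304 lost (46.7%) of all 651. Nervous system development had 28, with 17 lost and 2 turned, and axon guidance 20, with 10 lost, 2 turned and 1 kept (Lama1). Heart development had 24 with 2 kept (Myl2 and Foxf1), 1 turned (Tbx5) and 10 lost. Counted toward the embryonic side, the median HO fold change was -1.29 for potassium ion transport, -1.15 for transmembrane transport, -0.69 for nervous system development and 0.27 for heart development. Angiogenesis held 21 chamber genes with none kept and 10 lost, and the Wnt signaling pathway 16 with Fzd9 kept, Fzd10 turned and 9 lost. Of all 651 genes 27 were kept (4.15%), 43 turned (6.61%) and 304 lost (46.7%). The kept and lost counts of angiogenesis were near these shares. Terms were counted on the main scale alone, and the turned class depends on the scale as described above. Terms share genes, so these counts are not independent of each other.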

How the data were processed

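RNA from 12 libraries of dissected mouse tissue was sequenced. The submitters' processing notes name STAR and mm10. The counting tool, its version, the annotation and the use of strand are not given in the sources used here. The authors deposited estimated counts per gene, of which 23.8% were not whole, and FPKM values, that is counts scaled to transcript length and library total. Counts were rounded and CPM computed from them here. FPKM values were used for levels only.

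Genes were filtered with filterByExpr (minimum count 10), scaled by TMM and tested with edgeR 4.0.16 (quasi-likelihood, Benjamini-Hochberg adjustment, R 4.3.3) at an adjusted p of 0.05 and an absolute log2 difference over 1. The interaction was fitted on 12 libraries and each chamber difference on the 6 libraries of its tissue, without covariates. The edgeR interaction fit shared the spread of a gene between the tissues, although the spread was larger in HOs. Classes used unadjusted 95% intervals from the HO fit, and not detected meant at most 3 counts in each HO library, or removal by the filter with a mean under 1 CPM in both parts. Alternatives were RLE factors, library totals, no hemoglobin genes, pan-cardiomyocyte scaling, DESeq2 1.42.0, limma-voom (limma 3.58.1), edgeR robust, no filter, a CPM filter, a replicate block and each library left out. The floor was 3 counts per library, 0.0982 to 0.125 CPM. Scripts were tested on simulated data.

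Named genes were all genes past the interaction threshold, the 5 per class and side with the largest change at a mean of at least 5 CPM, and members of 4 cardiomyocyte lists, with others named where the text says so or as examples of the 19 lists (204 genes). Members and lists were chosen with earlier results of these data known. The study calls the replicates biological, but the labels do not tie libraries to separate cultures or litters, and p-values measure the spread between these libraries alone. Promoter sequences are from RefSeq (GRCm38.p6). Some genes that the rule names or that the counts include are not reported here by name.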

Additional observations from a re-analysis of the deposited data

Results flagged for a closer look

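Of the 25 genes past the interaction threshold 24 are listed because their chamber difference in HOs differed from that in E11.5H by the test of the difference itself (edgeR, n = 3 libraries in each of 4 groups). Negative interactions on the log2 scale were -10.65 for Shisa9, -10.19 for Vsnl1, -9.67 for Pvalb, -8.94 for Shox2, -8.90 for Slc17a7, -7.73 for Osr1, -6.97 for Rd3, -6.25 for Cyp1b1, -5.84 for Cav1 and -5.55 for Atp8b1. Smaller negative values were -5.10 for Nr2f1, -4.18 for Gal, -4.03 for Wnt2, -3.99 for Gjd3, -3.97 for Hcn4, -3.62 for Tmem163, -3.60 for Smoc2, -3.11 for Nr2f2, -2.47 for Adm and -2.41 for Cacnb3. Positive values were 1.26 for Minpp1, 1.32 for Atp13a3, 2.52 for Cxcl16 and 4.49 for B3gnt3. Those of Shisa9, Pvalb and Atp8b1 depend on the prior count, since their E11.5H ventricles had counts of 0 or 1.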

How the results depend on the processing

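The 25 interaction calls became 14 under the pan-cardiomyocyte scaling (6 of the 25 among them), 455 in DESeq2 (all 25), 38 in limma-voom with group weights (19 of the 25), 276 with both HO parts of number 2 left out and 2 to 216 with 1 library left out. Other scalings and filters and edgeR robust gave 22 to 25. The 712 embryonic chamber genes were 1982 without a fold limit and 538 to 765 with 1 library left out, and the 0 HO calls were 1321 under the pan-cardiomyocyte scaling, 59 in DESeq2 and 0 in each fit with 1 library left out. Under the pan-cardiomyocyte scaling kept, turned and unresolved genes numbered 93, 7 and 301 for atria and 3, 38 and 45 for ventricles, where 4928 of all 15703 genes had an unadjusted p under 0.05 (edgeR). With 1 HO library left out, atrial genes numbered 9 to 24 kept, 14 to 49 turned, 146 to 204 lost and 118 to 209 unresolved, and ventricular genes 8 to 25, 4 to 26, 91 to 120 and 135 to 162. Over all genes tested, 385 to 2153 had an unadjusted p under 0.05 in these fits (edgeR). Without number 2, 20 ventricular genes were kept, and 1286 of all 15525 genes had an unadjusted p under 0.05 (edgeR). The cause of these changes was not tested.

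Replicate numbers are shared across groups. The correlation of deviations of same-numbered libraries was -0.05, 0.61 and 0.41 in HOs and 0.01, 0.03 and 0.07 in E11.5H. Between HO libraries of different numbers it ranged from -0.72 to 0.49. The paper describes cutting the organoid samples into both parts, and the labels do not state whether a shared number marks the same sample. The main fits did not use the numbers, so a pairing of HO parts may be ignored in the 25 calls. With the replicate block 5 genes passed the interaction threshold, 2 of the 25 among them, and 20 ventricular genes were kept and 14 turned. In the HO fit the block gave a biological coefficient of variation of 0.533, with 1417 of 15703 genes at an unadjusted p under 0.05 (edgeR). With 3 libraries in a group and a spread of 0.677 among HO libraries, intervals of HO differences were wide, and 277 chamber genes could be called neither kept nor lost.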
